A study of Rattus norvegicus with 6 samples.

Results

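The testis-specific serine kinases are a small family of protein kinases made in male germ cells after meiosis. Of the 6 genes named for this family here (Tssk1b, Tssk2, Tssk3, Tssk4, Tssk5 and Tssk6), 5 had a row in the count tables of 21170 genes, and Tssk2 was not analysed here. The members were followed through the germ cells of 6 single-cell RNA libraries of rat testis, 1 library per animal. In 3 libraries the testis came from SD rats that had been through a model of psychological stress made by frightening sound (stressed), and in 3 from normal SD rats (control). No age, sex, dose of sound or time after stress is given in the sources used here, and no allele or drug is named for either group. The question the design addresses is how such stress changes the germ cells of the testis.

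Spermatogenesis runs from diploid spermatogonia through the meiotic divisions of spermatocytes to round spermatids, which then elongate, pack their chromatin with protamines and build the flagellum. The kinases of this family act in that last phase. In the mouse, loss of Tssk1 together with Tssk2, of Tssk3 or of Tssk6 makes males infertile, and loss of Tssk4 lowers fertility and sperm motility. Their catalytic domains are related to those of the AMP-activated kinase branch. Known partners and substrates, mostly from mouse work, include TSKS, which binds the TSSK1 and TSSK2 proteins, ODF2 of the tail's outer dense fibres, which TSSK4 phosphorylates, and TSACC, a small co-chaperone that with HSP90 is needed for TSSK6 activity. For Tssk5 no role is given here.

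Sequence upstream of the transcription start was available for 4 of the 5 measured members, from RefSeq on the GRCr8 assembly, and Tssk5 had no entry. It is shown because the 4 genes follow different courses through the same cells, and because many genes of round spermatids are switched on by CREM, a factor that binds the cAMP response element TGACGTCA. The 250 bases before the annotated start were searched on both strands for TGACGTCA, for TGACNTCA with N any base, for the element's 5-base core TGACG, and for TATAAA. TGACNTCA includes TGACGTCA, and both contain the core only where N is G. Bases that match are in capitals. The Tssk1b window is chr11:96596640-96596889 on the minus strand, the Tssk3 window chr5:147113594-147113843 on the minus strand, the Tssk4 window chr15:33111484-33111733 on the plus strand, and the Tssk6 window chr16:19559919-19560168 on the minus strand. Each sequence is given 5′ to 3′ on the gene's own strand.
Tssk1b: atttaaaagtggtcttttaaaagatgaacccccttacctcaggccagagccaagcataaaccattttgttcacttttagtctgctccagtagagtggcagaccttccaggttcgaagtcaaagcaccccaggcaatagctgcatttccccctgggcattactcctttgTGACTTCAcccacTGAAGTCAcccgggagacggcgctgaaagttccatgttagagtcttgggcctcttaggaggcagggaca
Tssk3: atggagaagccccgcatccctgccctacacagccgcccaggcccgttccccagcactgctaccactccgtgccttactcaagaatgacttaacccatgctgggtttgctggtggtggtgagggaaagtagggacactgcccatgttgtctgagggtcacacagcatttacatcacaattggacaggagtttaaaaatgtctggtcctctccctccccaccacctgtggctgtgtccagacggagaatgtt
Tssk4: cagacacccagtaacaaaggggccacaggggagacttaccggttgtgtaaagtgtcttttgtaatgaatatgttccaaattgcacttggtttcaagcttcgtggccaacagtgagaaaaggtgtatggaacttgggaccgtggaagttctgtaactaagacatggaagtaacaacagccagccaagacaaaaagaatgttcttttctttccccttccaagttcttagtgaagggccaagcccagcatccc
Tssk6: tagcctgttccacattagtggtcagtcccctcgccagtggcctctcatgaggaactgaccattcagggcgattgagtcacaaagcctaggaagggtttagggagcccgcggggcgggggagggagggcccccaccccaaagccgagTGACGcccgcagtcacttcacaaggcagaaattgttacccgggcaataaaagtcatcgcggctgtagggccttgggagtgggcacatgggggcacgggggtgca

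The Tssk1b window held 2 matches to TGACNTCA. They were TGACTTCA, 82 to 75 bases before the start, and TGAAGTCA, 69 to 62 bases before it, which is the same pattern read from the other strand. Of 33469 rat promoter windows of the same length, 8.88% held at least 1 match to TGACNTCA and 0.816% held 2 or more. The Tssk6 window held the core TGACG, 104 to 100 bases before the start, a core found in 18.2% of windows. No window of the 4 held TGACGTCA, present in 1.59% of windows, or TATAAA, present in 12.9%. The Tssk3 and Tssk4 windows held none of these letters, which says nothing of whether a factor binds there.

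The tables held 11744 cells: 409, 2506 and 2233 in stressed replicates 1, 2 and 3, and 2342, 1801 and 2453 in control replicates 1, 2 and 3. Total counts per library were 16756543 to 93898869 in the stressed libraries and 73650164 to 114984746 in the control libraries. The sources used here do not say if reads or molecules were counted. The cells fell into 19 clusters, and markers named 17 of them. These held 1387 cells like spermatocytes, 4154 like round spermatids and 5987 like elongating spermatids. None was named as spermatogonia or as a somatic cell type. The 216 unnamed cells included 195 in a cluster whose first genes were Apoe, Fos and Cd74, with 164 from stressed replicate 1. That library stood apart: it gave 24 spermatocyte-like cells, in which macrophage markers summed to 1002 CPM (counts per 1000000 counts). These markers summed to 35.9 and 44.9 CPM in the other stressed libraries and 28.9 to 51.3 CPM in the control libraries. The stress changes of Tssk6 in round and of Tssk4 in spermatocyte-like cells are therefore also given without stressed replicate 1. Stressed replicate 3 shared 1 cell barcode with control replicate 1 and 1 with control replicate 3.

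Levels are CPM, the share of all counts of the cells in question, and since CPM is not per length it is not compared between genes. For a finer view the clusters were joined into 7 steps, from spermatocyte to late elongating, ordered by the summed level of the late genes Odf1, Oaz3 and Smcp. The members were kept out of the genes on which cells were clustered. Genes that vary along maturation with them were kept, and the steps were set after the clusters were seen. The p-values for classes and steps therefore measure only how alike the libraries are along groups built from such genes. An 84-cell cluster that carried markers of several stages was counted as round spermatid-like but left out of the steps.

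The 5 kinases did not follow a single course. Tssk5 and Tssk4 were genes of round spermatids that were nearly gone in elongating cells, Tssk1b and Tssk3 were high from round spermatids onward, and Tssk6 came late and kept rising to the last step. Of the counts of Tssk5, 94.1% lay in round spermatid-like cells, as did 89.0% of those of Tssk4. Elongating spermatid-like cells held 83.6% of the counts of Tssk6, 64.0% of those of Tssk3 and 58.1% of those of Tssk1b. Spermatocyte-like cells held at most 4.98%, for Tssk4.

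**Figure D1:**
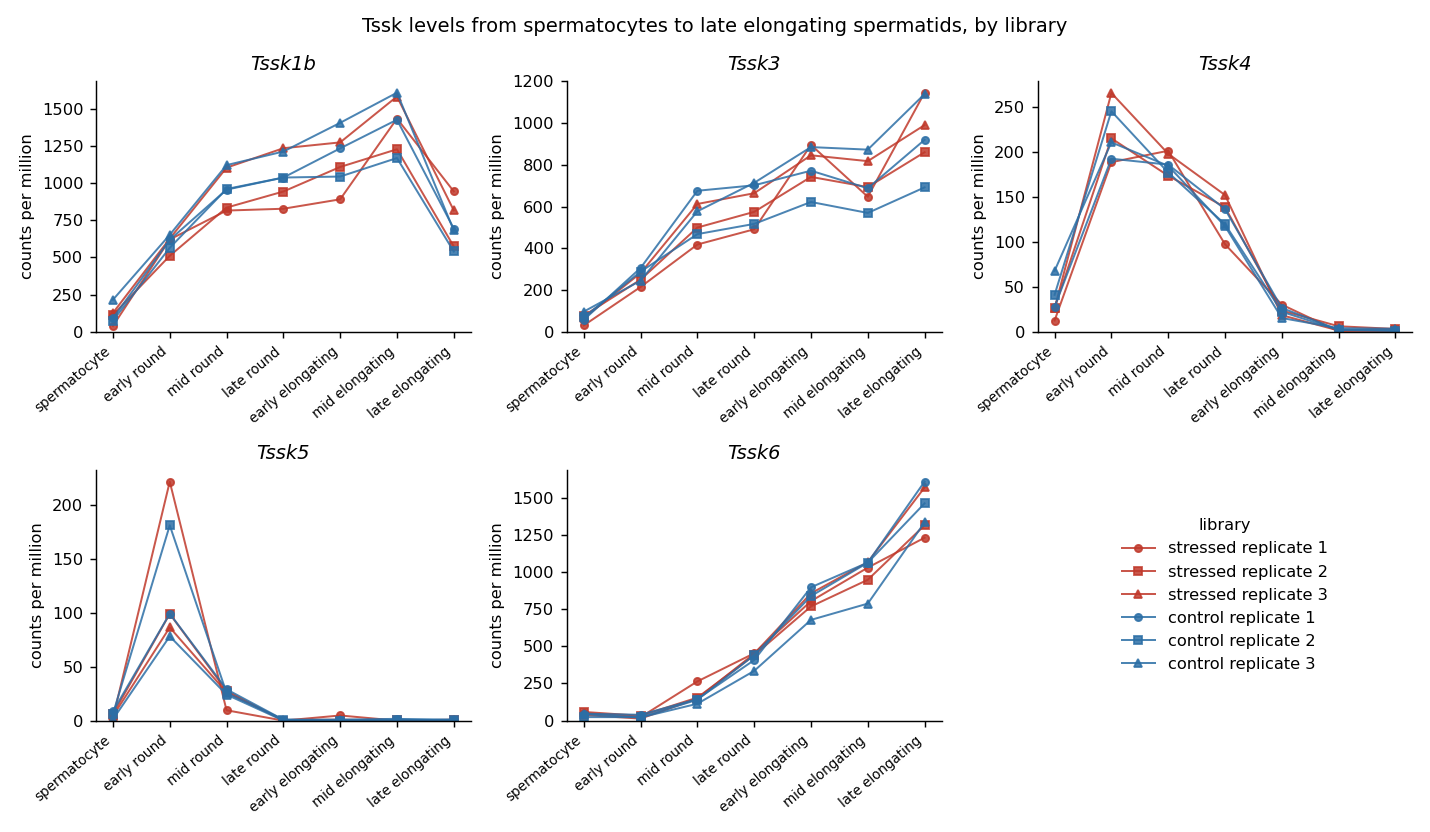
Level of each kinase in CPM (y axis) at the 7 steps from spermatocyte to late elongating spermatid (x axis), with 1 line per library, stressed in red and control in blue. Tssk5 has a sharp peak in early round cells in all 6 libraries, Tssk4 is high through the round steps, Tssk1b peaks in mid elongating cells, and Tssk3 and Tssk6 are highest in late elongating cells.

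Tssk5 had the narrowest pattern. In early round cells it stood at 221, 99.0 and 86.4 CPM in stressed replicates 1, 2 and 3, and at 99.1, 181 and 78.1 CPM in control replicates 1, 2 and 3. All 6 libraries had their highest level at this step, and stressed replicate 1 and control replicate 2 stood above the other libraries of both groups. Stressed replicate 1 gave only 22 early round cells, and 1 cell held 50 of its 226 Tssk5 counts in round spermatid-like cells. Both libraries had most of their early round cells in cluster 14 (15 and 117 cells), where Tssk5 was higher than in cluster 7 (7 and 58 cells). Within cluster 7 control replicate 2 was still highest, at 146 CPM, against 78.1 and 88.9 CPM in the other control libraries. The stressed libraries with at least 20 cells there stood at 71.5 and 84.7 CPM. Stressed replicate 1 had too few cells in either cluster for a level, and the part of this mix was not tested. In spermatocyte-like cells the 6 libraries averaged 4.77 ± 2.72 CPM (SD, n = 6), in mid round cells 23.7 ± 7.09 CPM and in late round cells 0.403 ± 0.437 CPM. The rise into early round cells was 4.52 ± 0.98 and the drop from mid to late round cells was -4.12 ± 0.52 on the log2(CPM + 1) scale, a scale that understates changes of low genes. Both went the same way in 6 of 6 libraries (exact sign-flip permutation test over libraries, 2-sided, p = 0.03125, the smallest it can give, adjusted p = 0.0375 over 30 step comparisons). In late round cells stressed replicates 1 and 2 had no count, which allows up to 1.97 and 0.281 CPM.

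Cells with at least 1 Tssk5 count made up 47.9% of early round cells on average over the libraries, 16.1% of mid round cells and 0.908% of late round cells. After every cell was thinned to 20000 counts, which left out 764 of 5148 stressed and 134 of 6596 control cells as too shallow, the shares were 45.5%, 14.9% and 0.766%. No named cells here are known to lack Tssk5. In the elongating steps it was found in 0.429% to 1.43% of thinned cells, a range that takes in the late round share. Median depth was 32772 counts per cell in spermatocyte-like, 38456 in round and 33273 in elongating spermatid-like cells. Steps after late round did not differ for Tssk5 beyond the spread between libraries (adjusted p = 0.50 to 0.59, exact permutation test).

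Tssk4, whose protein phosphorylates ODF2 in the mouse, also rose into early round cells but faded more slowly. It already differed between the 2 spermatocyte-like clusters, at 2.76 CPM in cluster 11 and 46.0 CPM in cluster 3. Tssk5 stood at 2.56 and 7.27 CPM in the same clusters, pooled over all their cells and with no test. In early round cells Tssk4 stood at 189, 215 and 266 CPM in the stressed and at 193, 246 and 211 CPM in the control libraries. The groups overlapped, and 5 of 6 libraries had their highest level here, while stressed replicate 1 had its highest level, 202 CPM, in mid round cells. From spermatocyte-like to early round cells Tssk4 rose by 2.83 ± 0.74 on the log2 scale in 6 of 6 libraries (exact permutation p = 0.03125, adjusted p = 0.0375). Early and mid round cells, at 220 ± 30.2 and 187 ± 11.1 CPM (SD, n = 6), did not differ beyond the spread (difference -0.22 ± 0.22, lower in 5 of 6 libraries, exact adjusted p = 0.108). From there it fell in 6 of 6 libraries at each of the next 3 steps (exact adjusted p = 0.0375 each), to 127 ± 19.4 CPM in late round, 22.9 ± 5.37 CPM in early elongating and 2.85 ± 2.05 CPM in mid elongating cells. Late elongating cells, at 2.20 ± 1.50 CPM, did not differ from mid elongating cells beyond the spread (exact adjusted p = 0.347).

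Tssk1b, counterpart of the mouse kinase that binds TSKS, rose early and stayed high. It stood at 40.3, 115 and 128 CPM in spermatocyte-like cells of the stressed libraries and at 91.9, 76.6 and 216 CPM in those of the control libraries. In early round cells it was already at 621, 511 and 627 CPM in the stressed and 619, 565 and 652 CPM in the control libraries, with every library above its own spermatocyte level and the groups overlapping. The rise was 2.59 ± 0.79 on the log2 scale. The level went on up at each step in 6 of 6 libraries, to 1433, 1227 and 1581 CPM in mid elongating cells of the stressed libraries and 1425, 1168 and 1607 CPM in those of the control libraries. In late elongating cells it then fell by 1.01 ± 0.22 in 6 of 6 libraries, to 708 ± 151 CPM (SD, n = 6). Each of these 6 step comparisons had an exact permutation p of 0.03125 and an adjusted p of 0.0375. All 6 libraries had their peak in mid elongating cells.

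Tssk3, a kinase that PDPK1 can switch on by phosphorylation, rose in the same way but had its highest level at the end. In spermatocyte-like cells it stood at 31.1, 77.6 and 66.2 CPM in the stressed and 57.9, 69.8 and 97.1 CPM in the control libraries. In late elongating cells it stood at 1145, 860 and 990 CPM in the stressed and 920, 692 and 1139 CPM in the control libraries, the highest step in each of the 6. On the way it rose by 2.04 ± 0.50 on the log2 scale into early round cells and by 1.02 ± 0.19 into mid round cells. It dipped from early to mid elongating cells, from 794 ± 104 to 715 ± 112 CPM (difference -0.15 ± 0.16, lower in 6 of 6 libraries, exact permutation p = 0.03125, adjusted p = 0.0375). That dip did not pass the test when the 21 elongating spermatid markers, which take a growing share of all counts, were left out of the total (difference -0.10, lower in 5 of 6 libraries, exact adjusted p = 0.108). The rise from mid to late elongating cells, 0.42 ± 0.21 in 6 of 6 libraries, passed with and without them (exact adjusted p = 0.0375 with them).

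Tssk6, which in the mouse is needed for the replacement of histones during chromatin packing, came on last. In early round cells it stood at 23.2, 32.7 and 13.5 CPM in the stressed and 39.4, 23.3 and 21.3 CPM in the control libraries, the lowest step in each of the 6. It was lower there than in spermatocyte-like cells by 0.76 ± 0.54 on the log2 scale in 6 of 6 libraries (exact permutation p = 0.03125, adjusted p = 0.0375), a difference that did not pass without the elongating markers in the total (-0.75, lower in 5 of 6). The spermatocyte-like cells also held elongating spermatid markers, which summed to 4945 to 10221 CPM in the stressed and 4202 to 7991 CPM in the control libraries, and their part in this difference was not tested. Tssk6 then rose at every step in 6 of 6 libraries, by 2.63 ± 0.64 into mid round, 1.43 ± 0.32 into late round, 0.94 ± 0.12 into early elongating, 0.30 ± 0.06 into mid elongating and 0.52 ± 0.17 into late elongating cells (exact permutation p = 0.03125, adjusted p = 0.0375 at each). In late elongating cells it reached 1232, 1315 and 1570 CPM in the stressed and 1610, 1463 and 1335 CPM in the control libraries.

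The share of thinned cells with a Tssk6 count followed the same course, at 18.9% of early round, 60.1% of mid round, 90.5% of late round and 98.0% of early elongating cells on average. Without thinning these shares were 23.8%, 65.9%, 92.3% and 97.9%. Tssk1b was found in 40.0% of thinned spermatocyte-like cells and in 92.8% of early round cells, and Tssk3 in 28.7% and 66.9%. In spermatocyte-like cells Tssk6 was found in 19.2% of thinned cells, next to the early round share.

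Taken as 3 classes, all 5 kinases were higher in round spermatid-like than in spermatocyte-like cells, by 2.40 (Tssk6) to 3.15 (Tssk1b) on the log2 scale, in 6 of 6 libraries each. From round to elongating spermatid-like cells Tssk6 rose by 2.23, Tssk3 by 0.68 and Tssk1b by 0.35, while Tssk4 fell by 4.11 and Tssk5 by 4.67, again in 6 of 6 libraries each. All 10 comparisons had an exact permutation p of 0.03125 and the same adjusted p. With 6 libraries that is the smallest p the test can give, and without any 1 library no comparison can pass, although each kept its direction.

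**Figure D2:**
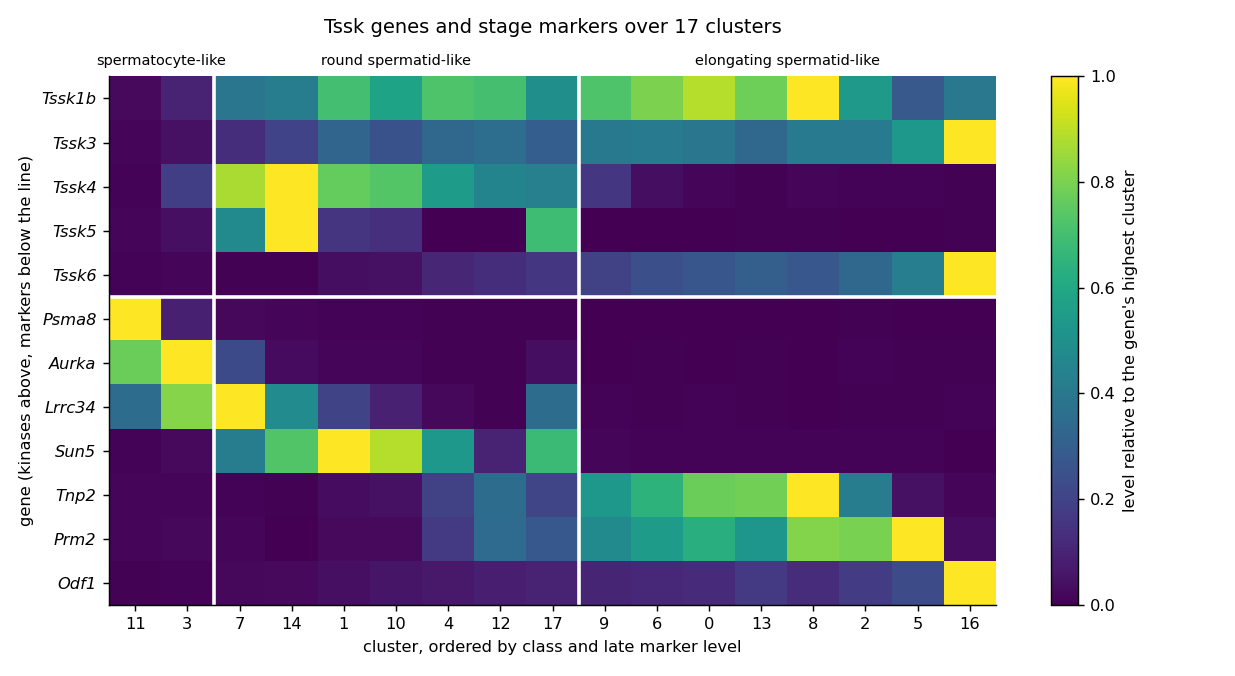
Level of the 5 kinases (upper rows) and of 7 stage markers (lower rows) in each of the 17 named clusters (x axis, in the order of the 3 classes), as a share of the gene's highest cluster. Tssk5 and Tssk4 are brightest in cluster 14 among the early round cells, Tssk1b in cluster 8, and Tssk3 and Tssk6 in cluster 16, the 111 cells with the highest Odf1.

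Within the steps the clusters differed further. Tssk5 averaged 84.7 CPM over the cells of cluster 7 and 177 CPM over those of cluster 14, both early round, where it was the leading gene of cluster 14. Cluster 16, 111 late elongating cells with Oaz3, Smcp and Odf1 among their leading genes, had 3565 CPM of Tssk6 and 1876 CPM of Tssk3, against 1528 and 1004 CPM in cluster 5 and 1203 and 775 CPM in cluster 2 of the same step. Tssk1b went the other way, at 833 CPM in cluster 2, 433 CPM in cluster 5 and 618 CPM in cluster 16. These are pooled values over all cells of a cluster, with no test. The libraries did not fill the clusters evenly: control replicate 2 gave 117 of the 262 cells of cluster 14, 222 of the 530 of cluster 10 and 181 of the 330 of cluster 13, while control replicate 3 gave 0, 2 and 0 of them, and control replicate 2 gave 1 of the 1141 cells of cluster 1.

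Most members lie next to or inside other genes, and the counting rule is not given in the sources used here, so reads of overlapping genes cannot be told apart. In the RefSeq annotation of GRCr8, Tssk1b and Tssk2 overlap Ess2, Tssk3 overlaps Bsdc1, Tssk5 overlaps Mroh1 and Tssk6 overlaps Gatad2a, while Tssk4 overlaps no gene. The neighbours had levels of their own. Ess2 averaged 18.9 CPM in spermatocyte-like and 5.26 CPM in mid elongating cells, Gatad2a 38.4 CPM in early round and 1.00 CPM in late elongating cells, and Mroh1 stayed between 5.46 and 10.2 CPM at all 7 steps. Bsdc1 averaged 7.63 CPM in spermatocyte-like and 38.7 CPM in late elongating cells, a rise in the same direction as that of Tssk3. Tssk1b and Tssk2 have similar sequences, so how reads were split between them is uncertain.

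Across 79 sums of a cluster within a library, the gene whose log2 level followed Tssk1b most closely among 5342 genes was Aqp7, a water and glycerol channel of spermatids (Pearson r = 0.953), followed by Lpp and Armc12 (r = 0.936 and 0.934). Gm9999 (r = 0.969) and Irgc (r = 0.967) were closest to Tssk3, Defb14 (r = 0.964), a defensin, to Tssk4, Tmem81 (r = 0.892), a sperm membrane protein, to Tssk5, and Spata18 (r = 0.977) and Klk1c9 (r = 0.973), with an unnamed gene above them, to Tssk6. Among the members themselves r was 0.85 between Tssk1b and Tssk3, 0.80 between Tssk3 and Tssk6, 0.64 between Tssk4 and Tssk5 and -0.75 between Tssk5 and Tssk6. The sums share libraries, depth and the path of maturation, so these values are descriptions, and Spata18 is itself a marker used to name elongating cells.

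The known partners and substrates of the kinases fell on both sides of the same path. TSKS, the TSSK1 and TSSK2 binding protein, had its Tsks messenger at 140 ± 19.4 CPM in spermatocyte-like and 1924 ± 396 CPM in mid elongating cells (SD, n = 6), the step where Tssk1b was highest too. Odf2 went up through the steps to 6562 ± 1496 CPM in late elongating cells, where the messenger of its kinase gene Tssk4 was at 2.20 CPM. Tsacc, the TSSK6 co-chaperone, was at 868 ± 63.3 CPM in spermatocyte-like and 1619 ± 137 CPM in late elongating cells. Pdpk1 was highest in mid elongating cells, at 290 ± 66.6 CPM. These levels are descriptions with no test, as the cells were grouped by genes like these.

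The other partners ran early. Hsp90aa1, an HSP90 chaperone, was at 6206 ± 928 CPM in spermatocyte-like and 88.4 ± 7.76 CPM in late elongating cells, and Hsp90ab1 at 406 ± 188 and 13.3 ± 13.7 CPM. H2ax, a histone whose phosphorylation in mouse spermatids depends on TSSK6, was at 46.5 ± 18.9 CPM in spermatocyte-like cells and below 1 CPM on average from early elongating cells on. Ppp1cc, a phosphatase subunit found with TSSK1 in the mouse, and Spag16, a protein of the flagellum, were also highest in spermatocyte-like cells, at 713 ± 131 and 199 ± 15.2 CPM. Crem had its highest average, 658 ± 52.3 CPM, in mid round cells and stood at 299 ± 43.9 CPM in spermatocyte-like and 17.9 ± 6.10 CPM in late elongating cells.

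**Figure D3:**
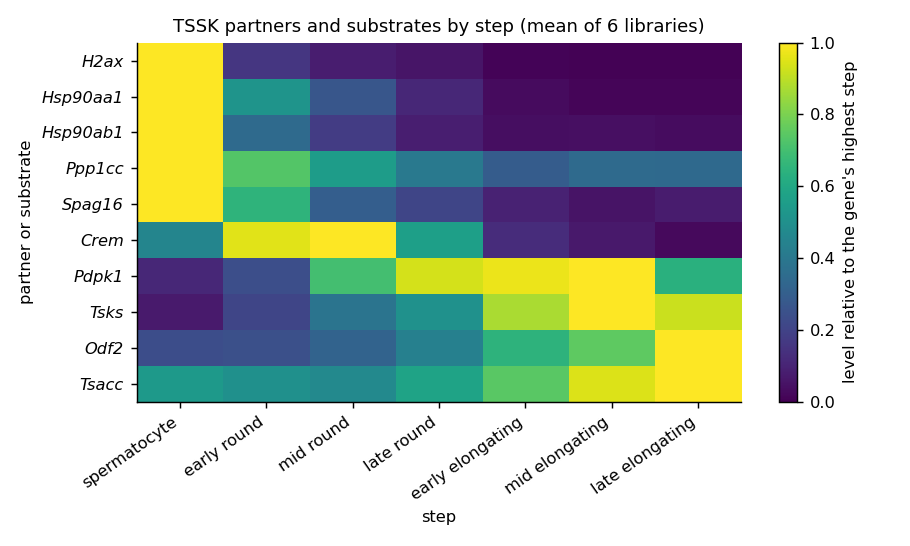
Mean level of 10 partners and substrates of the kinases over the 6 libraries at the 7 steps (x axis), as a share of each gene's highest step. H2ax, Hsp90aa1, Hsp90ab1, Ppp1cc and Spag16 are highest in spermatocyte-like cells, Crem in mid round cells, and Pdpk1, Tsks, Odf2 and Tsacc in elongating cells.

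Between stressed and control testes no kinase of the family passed the test in any class. Counts were summed per animal and class and tested with edgeR's quasi-likelihood test over all genes. The genes called at an adjusted p under 0.05 made up 0% of 10070 tested in spermatocyte-like, 0.0163% of 12267 in round, 0.00928% of 10775 in elongating spermatid-like cells and 0.00689% of 14519 in whole-library sums. Of the 5 members, all of which passed the filter on low counts in each fit, 0 were called in each of the 4 fits (edgeR adjusted p at least 0.999). At an unadjusted p under 0.05 the whole fits held 223, 297, 181 and 200 genes in the same order (2.21%, 2.42%, 1.68% and 1.38% of those tested), and 1 of the members, Tssk6 in round spermatid-like cells. DESeq2 called 3, 7, 2 and 4 genes, none of them a member. The 2 groups of libraries did not overlap for 1 of the 5 members in spermatocyte-like, 1 in round, 0 in elongating spermatid-like cells and 1 in whole-library sums, against 8.9%, 7.86%, 6.71% and 5.56% of all genes tested. Where genes with known changes were simulated, the test recovered 65% to 67% of those changed 8-fold and 1% to 10% of those changed 2-fold, so changes of 2-fold or less were mostly not detectable with 3 animals per group.

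**Figure D4:**
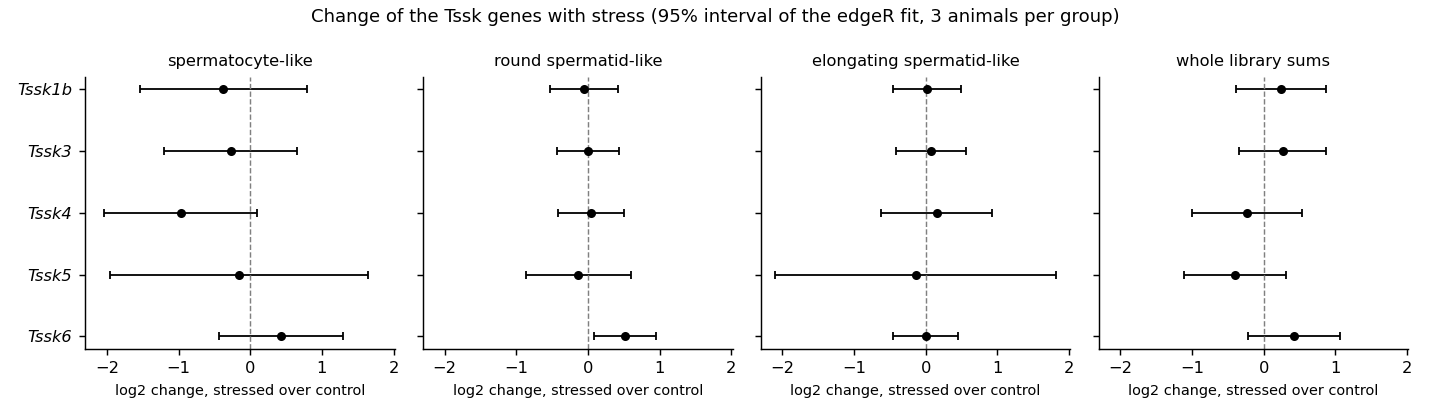
Log2 change of each kinase, stressed over control (x axis), with its 95% interval from the edgeR fit on 3 animals per group, in the 3 cell classes and in whole-library sums. Only the interval of Tssk6 in round spermatid-like cells lies to one side of 0, from 0.08 to 0.94, before adjustment for the number of genes tested.

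In round spermatid-like cells Tssk6 stood at 296, 267 and 224 CPM in stressed replicates 1, 2 and 3, and at 192, 223 and 170 CPM in control replicates 1, 2 and 3. Each stressed library was above each control library, the nearest pair being stressed replicate 3 and control replicate 2, less than 1 CPM apart. The log2 change was 0.51 with an SE of 0.19 (95% interval 0.08 to 0.94, edgeR unadjusted p = 0.0240, adjusted p = 1.00), and it was 0.45 without stressed replicate 1. Of all genes tested in these cells, 2.2% had every stressed library above every control library. The libraries also differed in how far their round cells had matured: late round cells made up 38.8%, 38.3% and 28.6% of the class in the stressed libraries and 25.1%, 32.8% and 32.3% in the control libraries. Fitted apart, the change of Tssk6 was -0.24 in early round, 0.54 in mid round and 0.22 in late round cells (edgeR unadjusted p = 0.583, 0.0447 and 0.253), in fits that called 0%, 0.0102% and 0.0215% of the genes tested and no member. The mid round change rested in part on stressed replicate 1: Tssk6 stood there at 264, 155 and 148 CPM in the stressed and 145, 140.5 and 114 CPM in the control libraries, and the log2 change was 0.27 without stressed replicate 1 (SE 0.21, 95% interval -0.20 to 0.73, edgeR unadjusted p = 0.230). Without that library it was -0.22 in early round and 0.24 in late round cells. Macrophage markers in this class summed to 315 CPM in stressed replicate 1, with 12 of 13 markers present and Cd163 at 0, against 30.95 and 34.2 CPM in the other stressed libraries and 34.8 to 99.4 CPM in the control libraries, and their part in the result was not tested.

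Tssk4 differed most in spermatocyte-like cells, where it is low. It stood at 12.7, 26.5 and 26.2 CPM in the stressed libraries and at 27.9, 41.3 and 67.9 CPM in the control libraries, so each stressed library was below each control library, as were 7.01% of the genes tested there. The log2 change was -0.97 with an SE of 0.48 (edgeR unadjusted p = 0.0714, adjusted p = 1.00). It was -0.71 without stressed replicate 1, whose 24 cells gave 11 counts of Tssk4, 5 of them in 1 cell, and -0.46 without control replicate 3. In stressed replicate 1 these cells also held macrophage markers at 1002 CPM, with 8 of 13 markers present and C1qa, Cd68, Csf1r, RT1-Ba and Cd163 at 0, and stromal markers at 921 CPM, with 6 of 9 present and Lum, Col1a1 and Col3a1 at 0, and their part in the result was not tested. In round spermatid-like cells, where Tssk4 is high, the groups averaged 166 ± 32.8 CPM in stressed and 171 ± 3.56 CPM in control libraries (SD, n = 3 each), a log2 change of 0.04 with a 95% interval from -0.42 to 0.50.

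**Figure D5:**
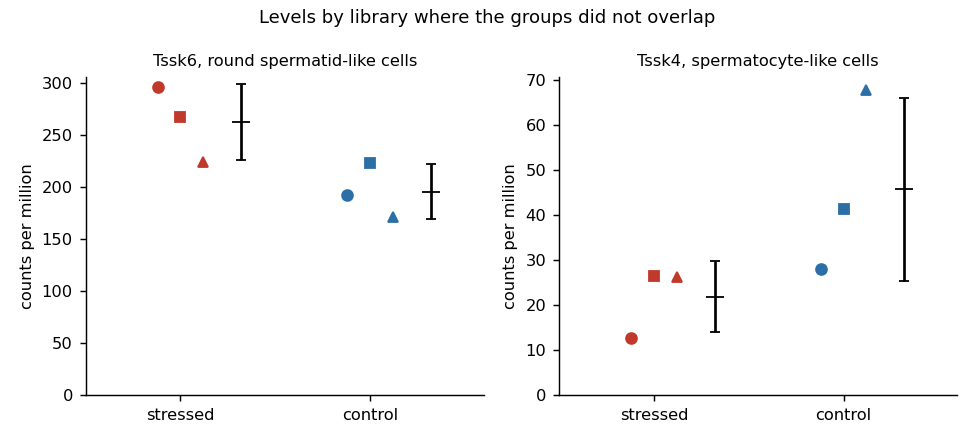
Level by library in CPM (y axis) of Tssk6 in round spermatid-like cells and of Tssk4 in spermatocyte-like cells, stressed in red and control in blue, with circles, squares and triangles for replicates 1, 2 and 3 and the mean with its SD (n = 3) beside them. Tssk6 lies at 224 to 296 in stressed and 170 to 223 in control libraries, and Tssk4 at 12.7 to 26.5 and 27.9 to 67.9.

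For Tssk1b and Tssk3 the groups overlapped in every class. In elongating spermatid-like cells Tssk1b averaged 1133 ± 122 CPM in stressed and 1124 ± 171 CPM in control libraries (log2 change 0.01, 95% interval -0.46 to 0.49), and Tssk3 831 ± 68.9 and 787 ± 164 CPM (0.08, -0.41 to 0.56). In round spermatid-like cells Tssk1b averaged 851 ± 161 CPM in stressed and 928 ± 101 CPM in control libraries, and Tssk3 487 ± 53.1 and 516 ± 67.2 CPM, with log2 changes of -0.05 and -0.00. In the same class the log2 change over all genes had a median of 0.00. Tssk6 in elongating spermatid-like cells averaged 1056 ± 115 CPM in stressed and 1066 ± 153 CPM in control libraries. Its log2 change was 0.00 with an interval from -0.45 to 0.46.

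Tssk5 was at 57.6, 30.3 and 32.9 CPM in round spermatid-like cells of the stressed libraries and at 50.6, 61.0 and 28.3 CPM in those of the control libraries. The groups overlapped, and the log2 change was -0.13 with a wide interval from -0.86 to 0.60. Over whole libraries Tssk5 stood at 14.1, 8.75 and 14.6 CPM in stressed and 19.3, 20.4 and 15.6 CPM in control testes, each stressed library below each control library, as were 4.33% of the genes tested (log2 change -0.40, SE 0.33, edgeR unadjusted p = 0.249). In sums over a whole testis sample, fewer cells of a stage and less RNA per cell cannot be told apart. Round spermatid-like cells made up 116 of 409, 621 of 2506 and 887 of 2233 cells in the stressed libraries and 733 of 2342, 604 of 1801 and 1193 of 2453 in the control libraries.

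The change from round to elongating cells was also set between the groups. Tssk6 rose by 2.01 ± 0.35 on the log2 scale in stressed and by 2.44 ± 0.18 in control libraries (SD, n = 3 each), a difference of -0.43 (exact permutation test, 2-sided, p = 0.3, adjusted p = 0.75). The drop of Tssk4 was -4.03 ± 0.74 in stressed and -4.19 ± 0.12 in control libraries, and that of Tssk5 -4.58 ± 0.13 and -4.76 ± 0.49. No member passed (exact p = 0.3 to 0.8), and with 3 libraries against 3 this test cannot give a p below 0.1.

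None of the related gene lists gave a called gene. Of the 10 partners and substrates, 10 were tested in each class and 0 were called. In round spermatid-like cells 3 were higher and 7 lower in stressed libraries, where 50.5% of all genes were higher, with a median log2 change of -0.07 against 0.00 over all genes, and the partner with the smallest unadjusted p was Hsp90ab1 (-0.33, SE 0.23, edgeR unadjusted p = 0.171, adjusted p = 1.00). Among elongating spermatid-like cells 5 partners stood higher and 5 lower, where 48.7% of all genes were higher, with a median of -0.02 against -0.01 over all genes. There Tsks changed by -0.11 and Odf2 by -0.10 on the log2 scale, with SEs of 0.21 and 0.22. In spermatocyte-like cells 7 were higher and 3 lower, where 47.5% of all genes were higher, with a median of 0.05 against -0.03 over all genes.

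Of 25 other kinases of spermatocytes and spermatids, 23 were tested in each class and 0 were called. Pskh1 had the smallest unadjusted p among them in spermatocyte-like cells, with a log2 change of -3.09 (SE 1.12, edgeR unadjusted p = 0.0198, adjusted p = 1.00), followed by Stk31 (0.56) and Camk4 (-0.60). In round cells the first 3 were Cilk1 (-1.67), Ttbk2 (0.41) and Pskh1 (-1.09), and in elongating cells Pskh1 (-2.33), Cdkl4 (1.102) and Csnk1g1 (-0.33). The list's median log2 change was -0.08 in spermatocyte-like, -0.03 in round and -0.25 in elongating spermatid-like cells. Over all genes the medians were -0.03, 0.00 and -0.01. In elongating spermatid-like cells 8 of the list were higher and 15 lower, where 48.7% of all genes were higher, and this difference was not tested.

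The AMPK and MARK branch, whose catalytic domains the TSSK family shares, had 13, 18 and 16 of 27 listed kinases and partners tested in spermatocyte-like, round and elongating spermatid-like cells, and 0 called. Mark4 in round cells had the smallest unadjusted p of that list, with a log2 change of 2.73 (SE 1.11, edgeR unadjusted p = 0.0339, adjusted p = 1.00), followed by Prkab2 (0.86) and Melk (1.23). In spermatocyte-like cells the first 3 were Strada (-0.48), Stk11 (-0.42) and Cab39l (-0.27), and in elongating cells Cab39 (-0.45), Prkag2 (0.25) and Prkab1 (0.94). The list's medians were -0.27, -0.06 and -0.10 in the same order of classes, against -0.03, 0.00 and -0.01 over all genes.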

How the data were processed

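Single-cell libraries from 3 stressed and 3 control rats were made with the Singleron GEXSCOPE kit and sequenced on an Illumina NovaSeq, per the labels' protocols. The counts deposited by the authors are whole numbers, 1 table per library with genes and cells as its sides. Their normalized tables were not used. The sources used here do not name an aligner, a counting tool, a strand setting, a genome build or a cell filter. Each library is labelled as a separate rat.

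All 11744 cells had 200 genes or more and no more than 20% of mitochondrial counts, the limits set. The 2000 variable genes were picked by their dispersion within bins of mean level, less mitochondrial genes and less the members, which left 1988 genes. On these, 30 principal components and 15 neighbours were found with scikit-learn 1.9.0. Cells were then clustered with leidenalg 0.10.2 at Leiden resolution 1, with no correction between libraries. Scrublet, run in scanpy 1.11.5, called 72 cells (0.613%) as doublets, and these were kept. A cluster was named where at least 3 markers of a list stood at 20 CPM or more and 1.5-fold above the other clusters, by the list with the largest share of such markers, unless its 10 leading genes held more markers of another class. This naming rule and the 7 steps were set after the clusters were seen.

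Raw counts were summed per library and class, with at least 20 cells each, and tested with edgeR 4.0.16 (TMM, filterByExpr, quasi-likelihood, Benjamini-Hochberg over all tested genes). DESeq2 1.42.0 was an alternative. Stage differences used log2(CPM + 1) and exact sign-flip permutation over the 6 libraries. The edgeR script was tested on simulated data with 200 changed genes per class. Limits from a count of 0 (3 counts) cover counting error only, and p-values measure the spread between animals. Named genes were the members, 10 partners, the 3 genes of each of 2 kinase lists with the smallest unadjusted p per class, and the 3 genes most like each member among genes of at least 10 CPM. A single overlapping or leading gene named beside a member was chosen after its values were seen. The members and lists were chosen with earlier results of these data known. No 2 libraries within a group were alike within sampling noise (chi-square over its degrees of freedom, 178 to 676).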

Additional observations from a re-analysis of the deposited data

Results flagged for a closer look

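Of 50 combinations of a kinase with a class, a step or the whole library, 3 had 1 of the 6 libraries far from the others, where chance alone gives about 5%. In each the library was stressed replicate 1, the smallest. Tssk5 in mid round cells was lowest there, at 9.60 CPM from 12 counts, against 24.1 to 29.0 CPM in the other 5 libraries. Tssk6 in mid round cells was highest there, at 264 CPM, against 114 to 155 CPM in the others. Tssk5 in early elongating cells was highest there, at 4.76 CPM from 8 counts, 6 of them in 1 cell, against 0 to 0.912 CPM in the others. The library gave 36 mid round and 36 early elongating cells.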

How the results depend on the processing

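No Tssk member was called in any alternative run. Tssk6 in round spermatid-like cells stayed positive under all but 1, and Tssk4 in spermatocyte-like cells (-1.26 to -0.46) and Tssk5 in whole libraries (-0.56 to -0.23) stayed negative under all. The number of genes called moved with the tool: DESeq2 gave 3, 7, 2 and 4 genes in spermatocyte-like, round, elongating spermatid-like cells and whole libraries, against 0, 2, 1 and 1 with edgeR, and no filter on low counts gave 2 in spermatocyte-like cells and 2 in whole libraries. Leaving out 1 library at a time gave 0 to 3 genes called in round cells, 0 to 1 in elongating cells and 0 to 3 in whole libraries (0 in round cells without stressed replicate 2 or control replicate 1, 0 in elongating cells without control replicate 1 or 2). The stage and step differences past the threshold numbered 10 and 25, and 0 with 5 libraries, which cannot give a p below the threshold.

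Small log2 changes turned sign. In round cells Tssk3 (-0.00 in the report) was 0.0027 with DESeq2, 0.00054 with the replicate block, 0.0050 without likely doublets and 0.0069 at Leiden resolution 2, Tssk4 was -0.042 with no TMM factor, and in early round cells alone Tssk5 was 0.16 and Tssk6 -0.24. In elongating cells Tssk1b was -0.016 with no filter and -0.15 in early elongating cells alone. Tssk4 there was -0.20 at resolution 0.5 and -0.053 with the Apoe cluster counted in, and Tssk5 was 1.50 in early elongating cells alone. Tssk6 there was -0.027 with no filter, -0.014 with no TMM factor, -0.010 with the replicate block and -0.14 in late elongating cells alone. The stress effect on the round to elongating difference of Tssk4 and Tssk5 was -0.24 and -0.063 at resolution 0.5 and -0.10 and -0.046 with the Apoe cluster. The cause was not tested. Leaving out 1 library, the members whose sign turned were, in spermatocyte-like cells, Tssk1b (-0.66 to 0.35), Tssk3 (-0.50 to 0.058) and Tssk5 (-0.58 to 0.32), in round cells Tssk1b (-0.21 to 0.10), Tssk3 (-0.12 to 0.10), Tssk4 (-0.11 to 0.19) and Tssk5 (-0.44 to 0.10), in elongating cells Tssk1b (-0.15 to 0.16), Tssk3 (-0.088 to 0.26), Tssk4 (-0.11 to 0.36), Tssk5 (-1.11 to 0.29) and Tssk6 (-0.17 to 0.12), in whole libraries Tssk4 (-0.52 to 0.066), the stress effect on the round to elongating difference of Tssk4 (-0.12 to 0.58) and Tssk5 (-0.078 to 0.41), the mid minus early elongating difference of Tssk5 (-0.66 to 0.022), and Tssk6 in early round cells alone (-0.67 to 0.060). Tssk6 in mid round cells alone stayed between 0.27 and 0.69.

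Same-numbered libraries were not treated as pairs. Their deviations from the group mean correlated at -0.12, -0.06 and 0.24 in round cells and at 0.06, 0.04 and 0.31 in spermatocyte-like cells. In round cells stressed replicate 1 and control replicate 2 correlated at 0.34. With 3 libraries per group the deviations are tied to each other, so these values cannot decide if the numbers pair the animals. With the replicate block 0, 1, 1 and 1 genes were called in the 3 classes and whole libraries, and Tssk5 in spermatocyte-like cells was 0.13. Alternatives with the Apoe cluster, the mixed cluster, single steps, with or without each library, and the step comparisons were chosen after seeing the data. Depth limits Tssk5 most in the late round and elongating steps, at 0 to 26 counts per library.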
